A study of Mus musculus with 16 samples.

Results

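Pax6, Sox1, Nes, Otx2, Neurog1, Neurog2, Olig2, Pou3f1 and Six3 are 9 genes of the neural lineage, and they were taken by gene symbol from the 43984 genes listed for histone marks and the 55471 listed for CpG methylation. Each symbol matched 1 row in either table. The question asked of them was whether induced pluripotent stem cells (iPSCs) of 2 origins, proximal tubule cells of the kidney (PTC) or fibroblasts of the tail tip (TTF), carry the same chromatin marks at genes that belong to neither cell of origin. There were 4 clonal lines (PTC11, PTC12, TTF1 and TTF4), and 16 libraries covered 4 assays: H3K4me3, H3K36me3 and H3K27me3 by ChIP-seq, and CpG methylation by nanopore sequencing. All lines came from young adult littermates that were heterozygous for SLC34a1-GFPCreERt2 and also carried the tdTomato, rtTAROSA (neo-in) and OKMS-250 transgenes. The mice were fed tamoxifen, and doxycycline switched on Oct4, Klf4, c-Myc and Sox2 in the cultured cells of both origins until the clones no longer needed it. In PTC the Cre that frees the transgenes was driven by the Slc34a1 promoter and the cells were sorted for tdTomato and GFP, whereas TTF received Cre from an episomal plasmid, so that the route of Cre and the cell of origin cannot be told apart. A line is 1 clone. With 1 library per line for H3K4me3, H3K36me3 and methylation, n was 2 lines per origin, and p values measure the spread between clones alone.

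Neural fate is set in steps by transcription factors such as those encoded here. Sox1, a SoxB1 factor, marks the first neuroectoderm. Otx2, a homeodomain factor of the forebrain and midbrain, and Pou3f1, a POU factor also called Oct6, act in the late epiblast as well as in neural cells. Pax6 and Six3 are homeodomain factors of the forebrain and eye, and Nes encodes nestin, an intermediate filament of neural progenitors and the only member that is not a transcription factor. Neurog1, Neurog2 and Olig2 are basic helix-loop-helix factors, the first pair proneural and the last needed for motor neurons and oligodendrocytes. Many such genes, though not all, are known to be silent in pluripotent stem cells. Their CpG-rich starts are mostly unmethylated and carry H3K4me3, a mark of open promoters. Often they also carry H3K27me3, the mark left by Polycomb, a state called bivalent. H3K36me3 is laid down in gene bodies by an enzyme that travels with elongating RNA polymerase.

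The starts of all 9 genes were rich in CpGs. Within 1000 bp of the transcription start site (TSS) of the methylation table, the mm10 genome holds 165 CpGs at Neurog2, 144 at Pou3f1, 137 at Neurog1, 127 at Nes, 124 at Sox1, 97 at Olig2, 92 each at Pax6 and Six3, and 87 at Otx2. These numbers lie at percentiles from 84.2 (Otx2) to 98.2 (Neurog2) of all genes. In the deposited coordinates Pax6 lies on chromosome 2 from 105668900 to 105697364, Sox1 on chromosome 8 from 12395295 to 12400126, and Nes and Neurog2 on chromosome 3 from 87971078 to 87980451 and from 127633135 to 127635631. Otx2 lies on chromosome 14 from 48657677 to 48673819 and Neurog1 on chromosome 13 from 56250478 to 56252163, both on the minus strand. Olig2 is on chromosome 16 from 91225457 to 91228677, Pou3f1 on chromosome 4 from 124656807 to 124660655, and Six3 on chromosome 17 from 85613608 to 85629302. Each TSS of the methylation table falls in an exon outside the coding sequence in GENCODE.

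The histone and methylation tables do not always use the same start. At Sox1, Nes, Neurog1 and Six3 the 2 tables share it, at Neurog2, Pax6 and Olig2 they are 1, 4 and 93 bp apart, and at Pou3f1 839 bp. At Otx2 they are 6175 bp apart, on 2 annotated starts, so that its H3K4me3 and its methylation describe different promoters. Over 36021 genes with an ID in both tables, 6.64% had starts more than 1000 bp apart. The Six3 start of both tables, at 85613608, lies 7226 bp upstream of the RefSeq promoter of that gene. Other genes overlap 5 of the members, among them Pax6os1, Sox1ot, Otx2os1, Gm2164 at Pou3f1 and Six3os1. ChIP-seq and CpG methylation do not separate the strands, and values there can hold signal of both genes. No gene overlaps Nes, Neurog1, Neurog2 or Olig2.

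The sequences shown run from 250 bases before to 50 bases after a start, and CpGs are in capitals. H3K4me3 and methylation were averaged over wider windows that hold these stretches, except that the Otx2 stretch lies outside the methylation window of that gene. Neurog2 is shown as the member with the lowest mean methylation over the 4 lines (10 CpGs in this stretch) beside its close relative Neurog1 (32), Olig2 as the gene whose H3K4me3 did not overlap between origins (25), Otx2 at the start of the histone table (6), and Six3 at the start of both tables (15), where 1 line was far above the others in methylation. The first 4 are RefSeq promoters on GRCm38.p6, the assembly also known as mm10, in which 8 of the 9 members had entries. Pou3f1 had none. The last was read from the same assembly. In the order printed they lie at chr3:127632886-127633185 on the plus strand, chr13:56252131-56252430 on the minus strand, chr16:91225300-91225599 on the plus strand, chr14:48667595-48667894 on the minus strand, and chr17:85613358-85613657 on the plus strand.
Neurog2: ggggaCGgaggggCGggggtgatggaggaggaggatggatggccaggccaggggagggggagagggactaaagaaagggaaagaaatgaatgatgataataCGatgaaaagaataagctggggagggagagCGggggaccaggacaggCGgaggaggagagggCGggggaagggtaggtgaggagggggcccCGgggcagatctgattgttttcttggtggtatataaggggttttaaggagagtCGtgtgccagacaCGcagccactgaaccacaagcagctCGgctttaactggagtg
Neurog1: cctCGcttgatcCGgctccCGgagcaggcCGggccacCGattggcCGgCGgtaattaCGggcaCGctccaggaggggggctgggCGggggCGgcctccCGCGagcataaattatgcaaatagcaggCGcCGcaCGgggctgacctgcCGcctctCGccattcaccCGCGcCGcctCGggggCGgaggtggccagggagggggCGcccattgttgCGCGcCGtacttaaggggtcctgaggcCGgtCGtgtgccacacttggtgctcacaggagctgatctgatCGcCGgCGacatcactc
Olig2: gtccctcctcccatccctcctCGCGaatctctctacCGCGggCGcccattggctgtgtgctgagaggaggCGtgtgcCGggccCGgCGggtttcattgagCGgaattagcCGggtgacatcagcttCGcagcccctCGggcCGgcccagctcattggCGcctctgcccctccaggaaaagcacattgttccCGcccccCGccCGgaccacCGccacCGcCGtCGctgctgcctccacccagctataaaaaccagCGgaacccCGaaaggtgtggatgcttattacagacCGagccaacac
Otx2, histone table: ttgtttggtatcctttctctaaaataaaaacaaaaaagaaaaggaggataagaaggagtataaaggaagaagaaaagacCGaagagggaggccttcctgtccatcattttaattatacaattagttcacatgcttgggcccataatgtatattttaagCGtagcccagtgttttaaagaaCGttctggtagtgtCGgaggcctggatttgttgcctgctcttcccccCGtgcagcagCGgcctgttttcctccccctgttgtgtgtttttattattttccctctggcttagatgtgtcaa
Six3: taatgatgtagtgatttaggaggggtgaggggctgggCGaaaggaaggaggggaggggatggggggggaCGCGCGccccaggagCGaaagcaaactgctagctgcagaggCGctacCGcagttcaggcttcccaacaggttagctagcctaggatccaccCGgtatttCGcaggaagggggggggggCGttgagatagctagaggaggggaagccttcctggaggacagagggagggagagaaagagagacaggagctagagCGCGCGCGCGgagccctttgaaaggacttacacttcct
The CpG (the letters CG, the same on both strands) occurred at least 1 time in 94.6% of 32851 RefSeq promoters of this length, with a median of 7. At least as many CpGs as in Neurog1 were held by 9.52% of them, as in Olig2 by 18.4%, as in Neurog2 by 43.5% and as in the Otx2 promoter of the histone table by 56.4%. Sox1, whose RefSeq promoter starts 224 bp downstream of the tables' start and is not printed, had 37 (5.58%).

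The tables give no reads or coverage, so that depth is unknown and error is taken from the spread between lines. H3K4me3 had a value at 15114 to 19990 genes per line, H3K36me3 at 20381 to 29905 and methylation at 52119 to 52690, while H3K27me3 had one at only 11 to 144 genes per library. Lines differed in level across the genome. The median H3K4me3 was 3.65 to 5.01 RPKM, the median H3K36me3 1.18 to 4.01 RPKM, and the mean methylated fraction 0.372 in PTC11 and 0.482 in PTC12, against 0.379 in TTF1 and 0.649 in TTF4. Of 14 pluripotency genes, 11 had H3K4me3 in all 4 lines, Pou5f1, Nanog and Sox2 among them, against 2 of 12 fibroblast genes (Thy1 and Loxl1) and 2 of 12 proximal tubule genes (Lrp2 and Slc27a2). Esrrb had no H3K4me3 value in any line, and neither did Slc34a1.

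H3K4me3, given as the mean input-subtracted RPKM of the peaks from 2 kb upstream to 3 kb downstream of the TSS, was present at the neural genes in nearly every line. Of 36 values possible for 9 genes in 4 lines, 34 were there. All 9 genes had a peak in PTC12 and TTF1, and 8 in PTC11 and in TTF4. Neurog1 had none in TTF4 and Six3 none in PTC11. A value is a mean over retained peaks of a bulk culture, in which a mark on fewer cells and a weaker mark on every cell cannot be told apart. A value in all 4 lines was found at 7 of 9 genes (77.8%), against 31.2% of all genes listed. That share went with CpG number across the genome. Of genes with 50 to 100 CpGs within 1000 bp of the histone TSS 75.3% had H3K4me3 in all 4 lines, and of those with 100 or more 95.0%.

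H3K4me3 of the neuroectoderm and epiblast factors spread widely between lines. Sox1 had 4.05 RPKM in PTC11 and 5.13 in PTC12, against 4.36 in TTF1 and 2.77 in TTF4, where it was the lowest of all member values in that line. Otx2 had 3.05 in PTC11 and 5.57 in PTC12, against 3.41 in TTF1 and 3.19 in TTF4, so that PTC12 stood alone. Pou3f1 had 3.04 in PTC11 and 5.54 in PTC12, against 6.48 in TTF1 and 3.85 in TTF4. The TTF1 value is the highest H3K4me3 of any member.

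Among the forebrain and progenitor genes the values were closer. Pax6 had 3.03 RPKM in PTC11 and 4.02 in PTC12, against 3.85 in TTF1 and 3.19 in TTF4. Six3 had 3.49 in PTC12, 3.79 in TTF1 and 3.27 in TTF4. Nes had 2.69 in PTC11 and 4.52 in PTC12, against 4.24 in TTF1 and 3.54 in TTF4. In Pax6 and Nes the 2 highest lines were PTC12 and TTF1, 1 of each origin.

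Of the helix-loop-helix factors, Neurog2 had 2.96 RPKM in PTC11 and 5.08 in PTC12, against 6.10 in TTF1 and 3.54 in TTF4. Neurog1, its close relative, had less in each line with a value, 2.89 in PTC11, 3.24 in PTC12 and 3.67 in TTF1. Olig2 had 4.04 in PTC11 and 3.79 in PTC12, against 3.64 in TTF1 and 3.44 in TTF4, a range of 0.602 RPKM over all lines, and it was the only member whose TTF lines both lay below both PTC lines.

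**Figure D1:**
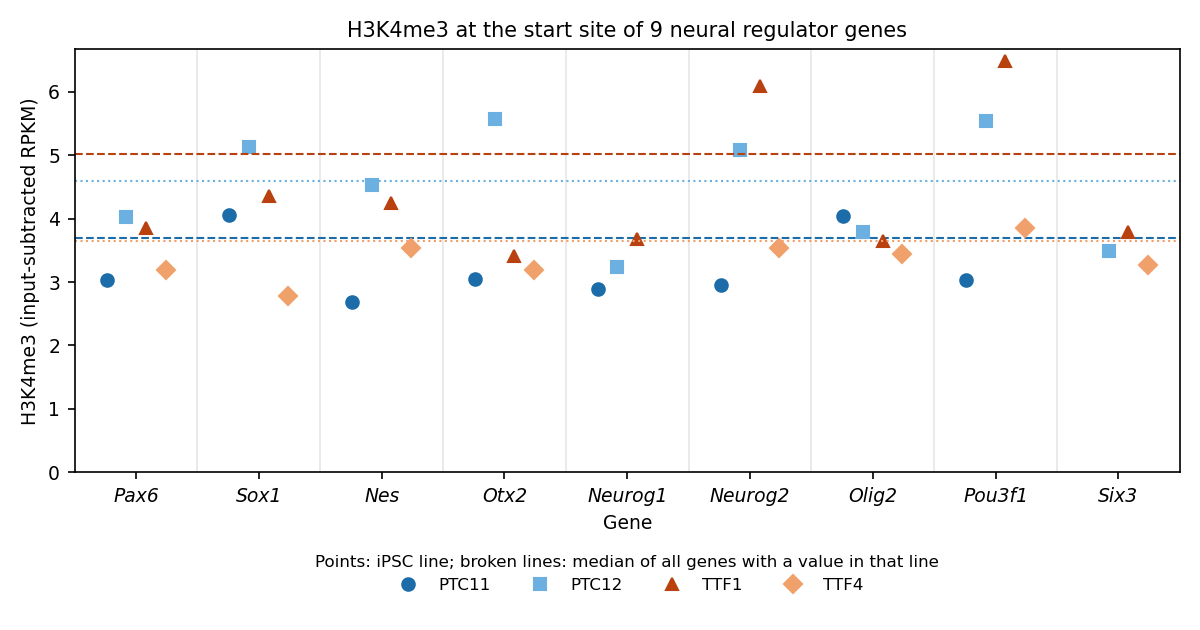
H3K4me3 at the TSS of each gene (input-subtracted RPKM, 1 point per iPSC line), with broken lines at the median of all genes with a value in that line. Most points lie below the broken line of their own colour, and Olig2 alone has both TTF points (3.64 and 3.44) below both PTC points.

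Ordered by the mean over lines, H3K4me3 ran from Pou3f1 (4.73 ± 1.57 RPKM, SD, n = 4 lines) over Neurog2 (4.42 ± 1.43), Sox1 (4.08 ± 0.981), Otx2 (3.80 ± 1.19), Nes (3.75 ± 0.819), Olig2 (3.73 ± 0.253), Pax6 (3.52 ± 0.486) and Six3 (3.52 ± 0.258, n = 3) to Neurog1 (3.27 ± 0.394, n = 3). In all 8 pairs of neighbours in this order the gap was smaller than the larger of the 2 SDs. These SDs also hold the difference in level between lines. Compared within lines, Pou3f1 was above Neurog2 in every line (3.04 against 2.96 RPKM in PTC11). Six3 was above Neurog1 in PTC12 and TTF1, the lines with a value of both. Every other pair changed order between lines, and no order was tested. PTC11 and TTF4 were the 2 lowest lines at 6 of the 7 members with 4 values, as they were at 81.4% of all 13709 such genes.

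The members' H3K4me3 was low for genes that carry it. Above the median of all genes with a value in the line were 2 of 8 members in PTC11 (Sox1 and Olig2), 4 of 9 in PTC12, 2 of 9 in TTF1 (Neurog2 and Pou3f1) and 1 of 8 in TTF4 (Pou3f1). The median percentile of the members was 16.5 in PTC11 and 48.7 in PTC12, against 29.6 in TTF1 and 34.5 in TTF4. Set beside genes of the same class of CpG number (50 to 100, or 100 and more), only 2 of 8, 1 of 9, 2 of 9 and 1 of 8 members lay above the class median in the same order of lines. Nes was at percentile 4.86 of its class in PTC11 and 37.4 in TTF4, its highest.

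No member passed the test between origins for H3K4me3. In limma with Benjamini-Hochberg adjustment over 13709 genes, 0 of the 7 tested members had an adjusted p under 0.05, and 0 had an unadjusted p under 0.05, where 0.481% of all genes were called (66 genes). Differences of TTF minus PTC on the log2(RPKM + 1) scale, which understates changes at low RPKM, were -0.31 at Sox1 (standard error 0.38, unadjusted p = 0.419, adjusted p = 1.00 from limma), -0.26 at Otx2, -0.11 at Olig2, 0.0041 at Pax6, 0.11 at Nes, 0.21 at Neurog2 and 0.23 at Pou3f1. Their standard errors were 0.33 to 0.44. The median of the 7 differences was 0.0041, and that of all genes 0.045. In RPKM, Sox1 had 4.59 ± 0.763 in PTC and 3.57 ± 1.12 in TTF lines (SD, n = 2 each), and Pou3f1 4.29 ± 1.77 and 5.17 ± 1.86. Olig2, with 3.91 ± 0.177 in PTC and 3.54 ± 0.147 in TTF lines, was the 1 of 7 members without overlap. Both TTF lines lay below both PTC lines at 3.17% of all genes and above them at 5.04%. An exact permutation test of 2 lines against 2 cannot go below a two-sided p of 0.33. After quantile normalization Olig2 overlapped, while Sox1 and Pou3f1 did not (28.5% of all genes on that scale). Neurog1 and Six3 were not tested for want of 1 line each.

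A wider list of 40 neural genes, among them further Sox, Pax, Zic, Dlx and Pou3f factors, was counted in the same way. Of the 39 in the histone table, 30 had H3K4me3 in all 4 lines (76.9%), 0 of 30 had an adjusted p or an unadjusted p under 0.05 in limma, and the median difference was -0.02. In 3 of 30 both TTF lines lay below both PTC lines, as at 3.17% of all genes, and in 0 above them, as at 5.04%. The difference from all genes was not tested. The highest mean of the list was at Zic2 (5.29 RPKM) and the lowest at Sox3 (2.81). Above the line median were 6 of 32 in PTC11 and 5 of 34 in TTF4, the lines of low H3K4me3, and 15 of 37 in PTC12 and 13 of 37 in TTF1, against 9 of 13 and 5 of 11, and 9 of 13 and 6 of 13 pluripotency genes in the same order. Of 16 mesendoderm genes, 9 had H3K4me3 in all 4 lines, with 1 of 11 and 2 of 11, and 3 of 15 and 1 of 12 above the line median in that order. Pou5f1 had 4.25 RPKM in PTC11 and 4.61 in PTC12, against 5.56 in TTF1 and 4.24 in TTF4. Low H3K4me3 for a marked gene was thus counted among mesendoderm genes as well as neural ones, and no difference between lists was tested.

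H3K27me3, the Polycomb side of the bivalent state, had no value at any of the 9 members in any of the 4 libraries. Few genes had any value, 192 of 43984 genes (0.437%) in at least 1 library, and of genes with H3K4me3 in 3 or more lines 162 of 16062 (1.01%). Values of 0 made up 36 of 69 in the first PTC11 library and 51 of 144 in the second. In TTF1 they were 11 of 52, and in TTF4 0 of 11. These counts can therefore include genes without signal. A gene is listed without a value where no peak was retained, so that a mark below the peak caller's threshold could not be detected here. Both PTC libraries are labelled PTC11, so no comparison between origins was made. Among the other listed genes, Dlx1 (neural) had 3.92 RPKM in the second PTC11 library and Lhx1 (mesendoderm) 1.65 in the first, and neither had a value in another library.

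H3K36me3 over the gene body, the mean RPKM of its broad peaks there, had 35 of 36 values at the members. Only Nes in TTF1 had none. A value in all 4 lines was found at 8 of 9 genes (88.9%), against 38.7% of all genes, 65.7% of genes with 50 to 100 CpGs and 85.1% of those with 100 or more.

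Sox1 had 2.09 RPKM in PTC11 and 6.99 in PTC12, against 0.942 in TTF1 and 4.96 in TTF4. Pou3f1 had 1.96, 7.70, 1.02 and 5.61 RPKM in the same order of lines. Otx2 had 1.97 in PTC11 and 3.69 in PTC12, against 2.35 in TTF1 and 3.60 in TTF4, and it was the 1 member of 8 with 4 values at which TTF1 was not the lowest line. Its TTF1 value was at percentile 97.8 of all genes in that line, while that of TTF4, although higher in RPKM, was at 37.7.

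Pax6 had 1.66 RPKM in PTC11 and 4.14 in PTC12, against 0.757 in TTF1 and 5.17 in TTF4. Six3 had 2.13, 4.71, 1.08 and 4.13 RPKM in the same order. Nes had 1.46 in PTC11, 8.88 in PTC12 and 4.84 in TTF4. The PTC12 value is the highest of any member, at percentile 97.5 of that line, whereas PTC11 put Nes at percentile 36.7.

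Neurog1 had 2.03 RPKM in PTC11 and 5.25 in PTC12, against 1.03 in TTF1 and 2.47 in TTF4. Neurog2 had 1.90, 6.64, 1.77 and 4.33, and Olig2 2.32, 5.86, 1.41 and 5.62 RPKM in the same order. As at every other member with 4 values, PTC11 and TTF1 were the 2 lowest lines. This held at 8 of 8 members and at 93.6% of all 17039 genes with 4 values, and it crosses the cell of origin.

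**Figure D2:**
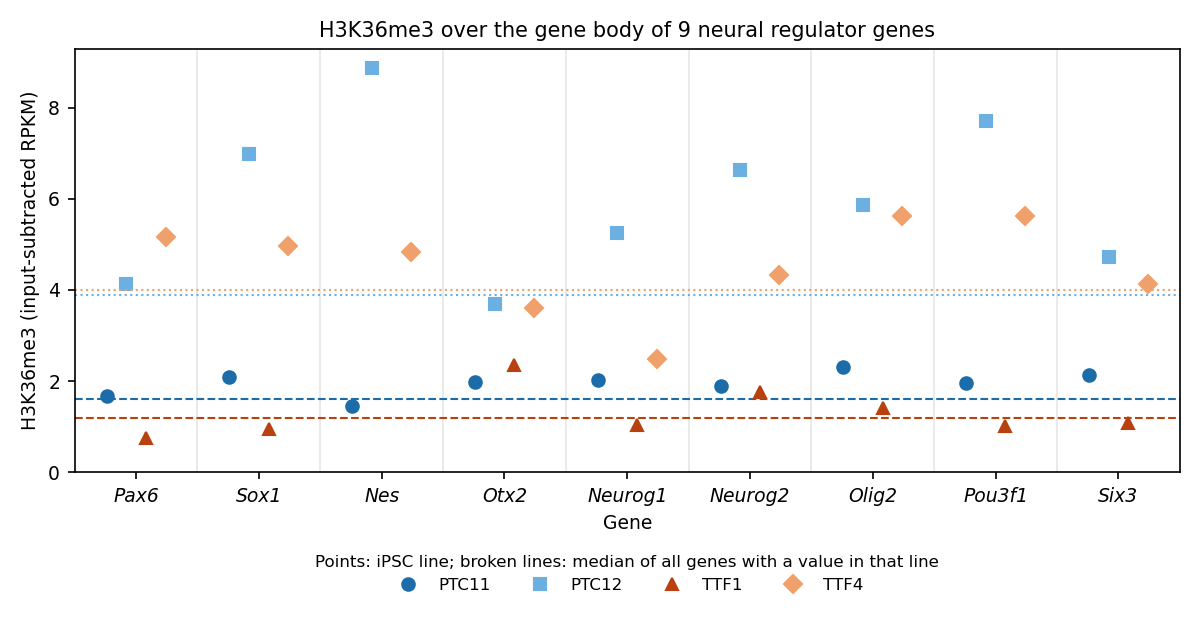
H3K36me3 over the gene body of each gene (input-subtracted RPKM, 1 point per iPSC line), with broken lines at the median of all genes with a value in that line. PTC12 and TTF4 lie above PTC11 and TTF1 at every gene with 4 values, and the broken lines (1.60 RPKM in PTC11 and 3.88 in PTC12, against 1.18 in TTF1 and 4.01 in TTF4) are split in the same way.

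Relative to all genes with a value in the line, H3K36me3 of the members was high in 3 lines and low in the other. Above the line median were 8 of 9 members in PTC11, 8 of 9 in PTC12 and 7 of 9 in TTF4, but 3 of 8 in TTF1 (Otx2, Neurog2 and Olig2). The median percentile was 79.0 in PTC11, 84.4 in PTC12, 71.2 in TTF4 and 38.2 in TTF1. Beside genes of the same CpG class, 7 of 9, 8 of 9, 6 of 9 and 3 of 8 lay above the class median in PTC11, PTC12, TTF4 and TTF1. Olig2 was above it in all 4 lines. The mean over lines ran from 5.06 ± 3.71 RPKM at Nes (SD, n = 3 lines) to 2.70 ± 1.81 at Neurog1 (SD, n = 4 lines). The Nes mean lacks TTF1, the lowest line at 84.6% of all genes with 4 values, so its place at the top is not like for like. All 8 neighbouring gaps were smaller than the larger SD, which also holds the difference in level between lines. Each neighbouring pair also changed order between lines. Olig2 was above Neurog1, Six3 and Pax6 in all 4 lines, which was not tested.

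For H3K36me3, limma called 0 of 8 members over 17039 genes, with 0 at an unadjusted p under 0.05, where 0.112% of all genes were called (19 genes). Differences of TTF minus PTC on the log2(RPKM + 1) scale ran from -0.71 at Neurog1 (standard error 0.99, unadjusted p = 0.472, adjusted p = 1.00 from limma) over Sox1 (-0.55), Pou3f1 (-0.47), Six3 (-0.37), Neurog2 (-0.29), Olig2 (-0.25) and Pax6 (-0.17) to Otx2 (0.07). With 7 of 8 below 0, the median was -0.33, and it was -0.14 over all genes, 12672 of which lay below 0. The sign of the members' median rested on single lines. It was 0.29 without PTC12, with 7 of 8 above 0, and 0.28 without TTF1, with 8 of 9 above 0, against -0.90 without PTC11 and -1.05 without TTF4, and the median of all genes moved to 0.33, 0.46, -0.60 and -0.72 with them. In the fit of all 4 lines the standard errors of the members were 0.99 to 1.23, and each exceeded the difference of its gene. Neurog1 had 3.64 ± 2.28 RPKM in PTC and 1.75 ± 1.02 in TTF lines (SD, n = 2 each). No member had both TTF lines on 1 side of both PTC lines, which was so above PTC at 0.452% and below PTC at 3.05% of all genes. Quantile normalization between lines, which takes away the difference in level, left 3 of 8 members (Sox1, Neurog1 and Six3) with both TTF lines below both PTC lines, as at 13.7% of all genes on that scale, where 16.3% lay above and the median of all genes was 0.01, and still 0 called.

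In the 40 other neural genes, 32 had H3K36me3 in all 4 lines, 0 had an adjusted or unadjusted p under 0.05 in limma, and the median difference was -0.23. Sox21 had the highest mean (4.70 RPKM) and Neurog3 the lowest (2.20). Above the line median were 33 of 37 in PTC11 and 25 of 37 in PTC12, against 22 of 34 in TTF1 and 22 of 35 in TTF4. The same count was 16 of 16, 13 of 15, 10 of 15 and 11 of 13 for mesendoderm genes, 10 of 14, 10 of 13, 10 of 14 and 6 of 10 for pluripotency genes, and 5 of 11, 3 of 11, 6 of 11 and 4 of 8 for fibroblast genes. The share of neural genes above the line median was higher than that of pluripotency genes in PTC11 and TTF4 and lower in PTC12 and TTF1, and the difference was not tested.

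CpG methylation was low around the start of nearly every member. The fraction of methylated CpGs, averaged over 300 bp windows within 1000 bp of the TSS, was below the median of all genes in 35 of 36 values, the exception being Pou3f1 in TTF1. The median over the 9 genes was 0.0566 in PTC11 and 0.0831 in PTC12, against 0.0543 in TTF1 and 0.134 in TTF4, where that of all genes was 0.385, 0.539, 0.374 and 0.770.

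Neurog2 had the lowest mean over the 4 lines, although Nes was lower in PTC12, Nes and Six3 in TTF1, and Sox1 in TTF4. It had 0.0192 in PTC11 and 0.0273 in PTC12, against 0.0401 in TTF1 and 0.00644 in TTF4. Nes had 0.0595, 0.0266, 0.0302 and 0.0618 in the same order of lines. Sox1 had 0.0694 in PTC11 and 0.0831 in PTC12, against 0.0463 in TTF1 and 0.00226 in TTF4. In TTF4, the line with the highest genome-wide methylation, Sox1 was thus at percentile 0.721 of all genes and Neurog2 at 1.07.

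Olig2 had 0.0472 in PTC11 and 0.0476 in PTC12, against 0.0543 in TTF1 and 0.145 in TTF4. Neurog1 had 0.0280, 0.140, 0.134 and 0.154 in the same order, so that PTC11 was apart from the other lines. Pax6 had 0.0554 in PTC11 and 0.104 in PTC12, against 0.187 in TTF1 and 0.134 in TTF4. Here, as at Olig2 and Pou3f1 and at 20.5% of all genes, each TTF value was higher than either PTC value. No such split remained at these members once the mean of each line was subtracted.

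At 3 members a single line lay above the other lines by at least 0.185. Otx2 had 0.0566 in PTC11, 0.146 in PTC12 and 0.0946 in TTF1 but 0.533 in TTF4, a gap of 0.387 to the next line. Pou3f1 had 0.0618 in PTC11, 0.141 in PTC12 and 0.159 in TTF4 but 0.406 in TTF1, a gap of 0.247. Six3 had 0.0452 in PTC12, 0.0304 in TTF1 and 0.00889 in TTF4 but 0.230 in PTC11, a gap of 0.185. These genes were chosen after their values were seen, and each rests on 1 sample of 1 clone with unknown coverage.

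Such gaps were more common across the genome in TTF4 than in TTF1 or PTC11. TTF4 stood above the other lines by as much as at Otx2 in 7.52% of 50657 genes, and its class of 50 to 100 CpGs had a median of 0.314 in TTF4 against 0.115 in PTC11, 0.164 in PTC12 and 0.119 in TTF1. Otx2 in TTF4 was at percentile 77.7 of that class. TTF1 stood out by as much as at Pou3f1 in 0.401% of genes and in 7 of 6527 genes with 100 or more CpGs, and Pou3f1 was at percentile 99.6 of its class there. PTC11 stood out by as much as at Six3 in 0.399% of genes, and Six3 was at percentile 78.9 of its class. H3K4me3 took no common course at these genes and lines. Pou3f1 had its highest H3K4me3 (6.48 RPKM) in TTF1, at a start 839 bp from that of the methylation table, Six3 had no H3K4me3 value in PTC11, and Otx2 had 3.19 RPKM in TTF4 at a start 6175 bp away.

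**Figure D3:**
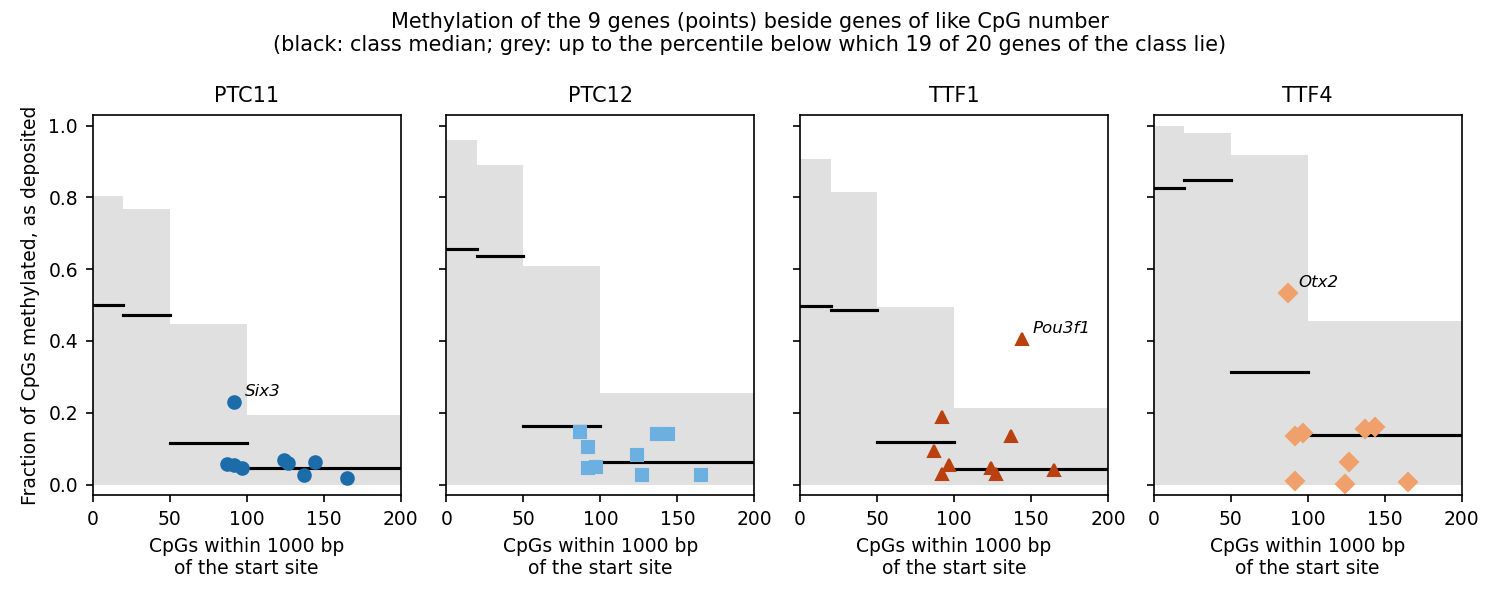
Fraction of methylated CpGs of the 9 genes (points, 1 panel per iPSC line) against the number of CpGs within 1000 bp of the TSS, with the median (black) and the range up to the 95th percentile (grey) of all genes in classes of like CpG number. Most points lie low in the grey range, and Pou3f1 in TTF1 (0.406) lies above the grey range of its class.

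Low methylation went with a high CpG number across the genome. Genes with 100 or more CpGs had median fractions of 0.0451 in PTC11 and 0.0627 in PTC12, against 0.0446 in TTF1 and 0.139 in TTF4, and genes with fewer than 50 had 0.489, 0.648, 0.492 and 0.837. Beside their own class, 4 of 9 members lay above the median in PTC11 and in TTF1, and 3 of 9 in PTC12 and in TTF4. Pou3f1 was above it in all 4 lines, and Olig2 and Neurog2 in none. Ordered by the mean over lines, the fractions ran from 0.208 ± 0.220 at Otx2 (SD, n = 4 lines) and 0.192 ± 0.149 at Pou3f1 to 0.0445 ± 0.0187 at Nes and 0.0232 ± 0.0141 at Neurog2. Nes and Neurog2 were the only neighbours in the order whose gap exceeded the larger SD, yet their order changed between lines. Nes was the lower in PTC12 (0.0266 against 0.0273) and in TTF1 (0.0302 against 0.0401). Of the other 7 pairs, only Pou3f1 and Pax6 kept their order in every line. No order was tested.

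**Figure D4:**
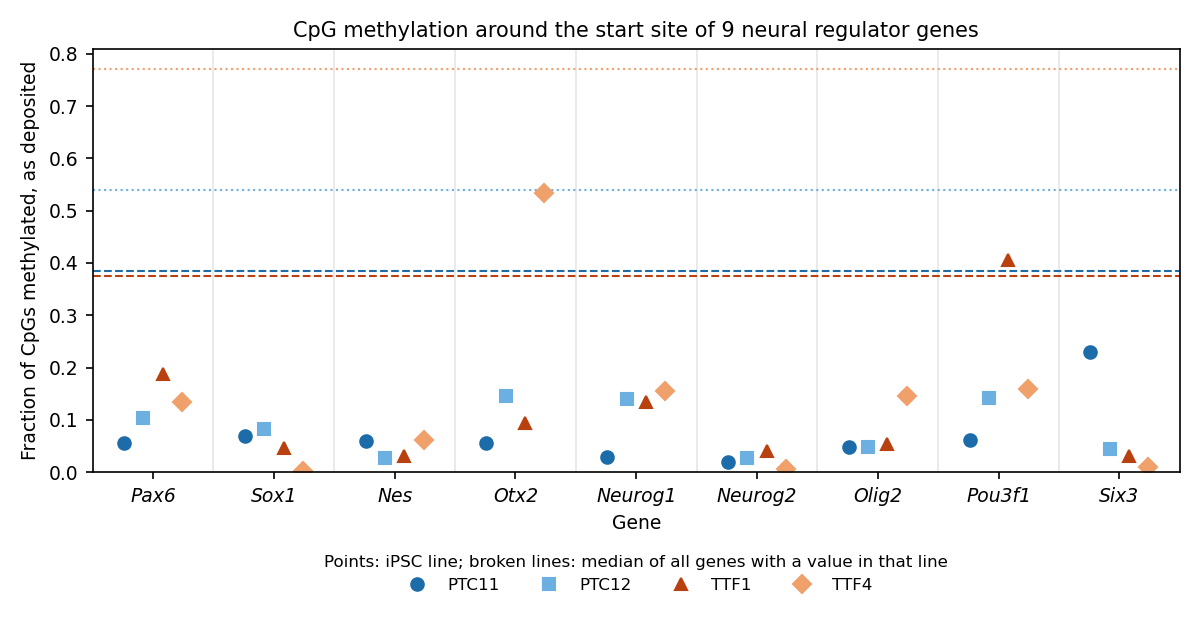
Fraction of methylated CpGs around the TSS of each gene as deposited (1 point per iPSC line), with broken lines at the median of all genes with a value in that line. Points lie near the foot of the plot except Otx2 in TTF4 (0.533), Pou3f1 in TTF1 (0.406) and Six3 in PTC11 (0.230).

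No member passed the test between origins for methylation. Following the study, the mean of each line was subtracted first, and 0 of 9 members had an adjusted p or an unadjusted p under 0.05 over 50657 genes, of which 0.00395% were called (2 genes). Some alternatives gave an unadjusted p under 0.05. Six3 had an unadjusted p = 0.0338 without centring (adjusted p = 1.00 from limma) and an unadjusted p = 0.00568 without TTF1 (adjusted p = 0.145 from limma). Sox1 had an unadjusted p = 0.0241 without TTF1 (adjusted p = 0.332 from limma), and Pou3f1 an unadjusted p = 0.00545 without TTF4 (adjusted p = 0.209 from limma). The difference of TTF minus PTC after centring was -0.205 at Six3 (standard error 0.132, unadjusted p = 0.125, adjusted p = 1.00 from limma), -0.139 at Sox1, -0.0871 at Neurog2, -0.0841 at Nes, -0.0350 at Olig2, -0.0265 at Neurog1, -0.00578 at Pax6, 0.0942 at Pou3f1 and 0.125 at Otx2. The standard errors were 0.127 to 0.140. Since the line means subtracted were 0.372 and 0.482 in PTC and 0.379 and 0.649 in TTF, a start near 0 in all lines gets a negative difference by this arithmetic. Genes with 100 or more CpGs had a median difference of -0.0562 after centring, against -0.0148 with 50 to 100 and 0.0102 with fewer than 50. The members' median was -0.0350 and that of all genes -0.0100.

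As deposited, without centring, the differences were 0.213 at Otx2, 0.181 at Pou3f1, 0.0813 at Pax6, 0.0606 at Neurog1, 0.0521 at Olig2, 0.00295 at Nes, 2.8e-05 at Neurog2, -0.0520 at Sox1 and -0.118 at Six3. Thus 5 members, Pax6, Nes, Neurog1, Neurog2 and Olig2, changed sign with the centring. At Pax6, Olig2 and Pou3f1 the TTF lines were both above PTC11 and PTC12, and at Sox1 and Six3 both below them, 5 of 9 members, where 20.5% of all genes lay above and 3.36% below. After centring only Otx2 did not overlap, with TTF above, as at 15.0% of all genes, while 12.8% lay below. The count of members without overlap therefore rests on the centring. In Six3 the fraction as deposited was 0.137 ± 0.131 in PTC and 0.0196 ± 0.0152 in TTF lines (SD, n = 2 each), and without PTC11 the difference after centring was -0.0577.

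**Figure D5:**
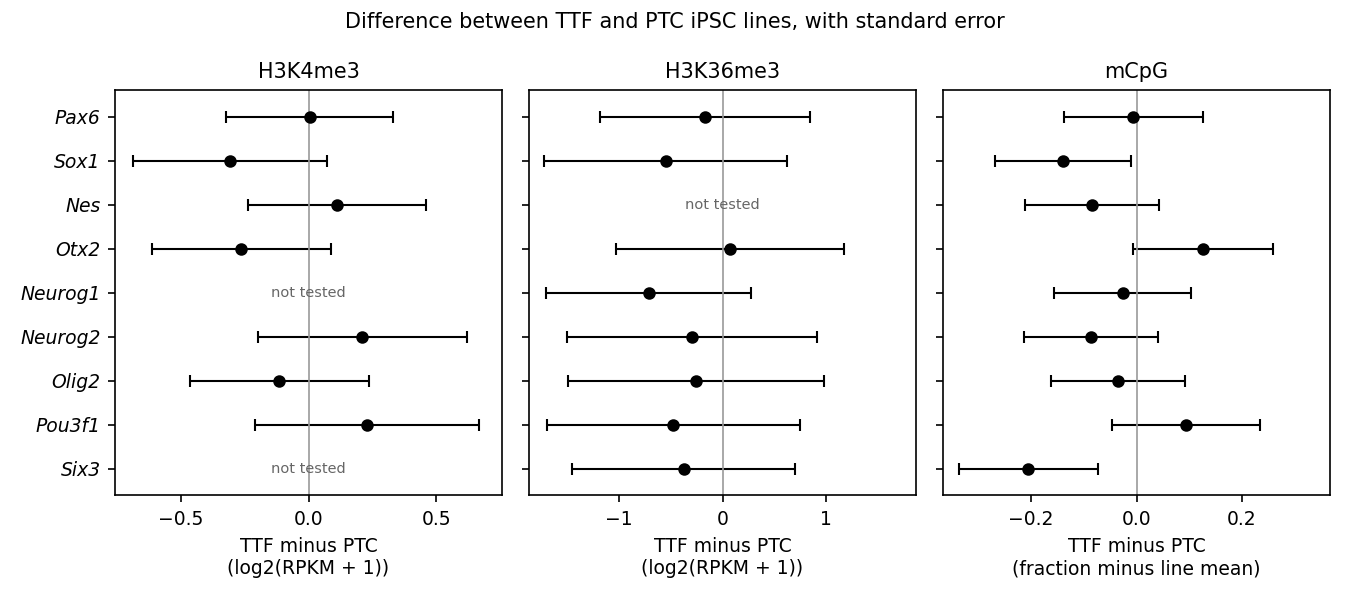
Difference of TTF minus PTC lines for each gene (points) with its standard error from limma (bars), on the log2(RPKM + 1) scale for H3K4me3 and H3K36me3 and as fraction minus line mean for methylation. In H3K4me3 and H3K36me3 every bar reaches across 0, and in methylation only those of Sox1 and Six3 stop short of it, with an adjusted p of 1.00 from limma for both.

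Among the 40 other neural genes 0 had an adjusted p under 0.05 for methylation in limma and 2 had an unadjusted p under 0.05, where 2392 of 50657 genes did. Pou3f4, a relative of Pou3f1 on the X chromosome, had 0.105 in PTC11 and 0.111 in PTC12, against 0.399 in TTF1 and 0.663 in TTF4 (difference after centring 0.336, standard error 0.139, unadjusted p = 0.0192, adjusted p = 0.904 from limma). Emx2, a forebrain homeodomain factor, had 0.153 in PTC11 and 0.376 in PTC12, against 0.0848 in TTF1 and 0.00740 in TTF4 (difference -0.305, standard error 0.134, unadjusted p = 0.0263, adjusted p = 0.963 from limma). Both were chosen after their values were seen. The median fraction of the list was 0.0673 in PTC11 and 0.0702 in PTC12, against 0.0668 in TTF1 and 0.0619 in TTF4, with the lowest mean at Sox11 (0.00350) and the highest at Fabp7 (0.488). Pluripotency genes had 0.0278, 0.105, 0.101 and 0.305, and proximal tubule genes 0.456, 0.589, 0.405 and 0.871 in the same order of lines. Among all genes listed, none shared the values of a member in all lines of an assay.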

How the data were processed

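The 16 libraries were ChIP-seq of H3K4me3, H3K36me3 and H3K27me3 and nanopore sequencing of genomic DNA from PTC11, PTC12, TTF1 and TTF4, grouped by the labels. For H3K27me3 both PTC libraries are labelled PTC11, so its values are given without a test. The authors aligned ChIP-seq reads to mm10, called peaks with MACS2 against input, counted reads per peak, subtracted input and deposited RPKM as the mean over the peaks of a gene. Per the submitters' processing notes the tools were Bowtie2 2.1.0, MACS2 2.0.10 and bedtools 2.17.0, and minimap2 2.17-r941 and SAMtools 1.3.1 for nanopore reads. Where no peak was retained the gene is blank, and a mean over peaks is not an amount per gene. For methylation the authors deposited the fraction of methylated CpGs over 300 bp windows moved by 30 bp around each start, called with Nanopolish. Neither table gives reads or coverage, so no counting interval could be made.

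From these values, log2(RPKM + 1) and the fraction minus the mean of its line were compared between origins with limma 3.58.1 (R 4.3.3, moderated with a variance trend) over all genes with a value in the 4 lines, with Benjamini-Hochberg adjustment over all of them and a threshold of 0.05. The step was tested on simulated data with changes of known size. The check it had to pass used noise far below the spread between these lines, and could not show which differences could be found here. Percentiles, CpG classes and counts used Python 3.11.15, numpy 2.4.6, pandas 2.3.3 and matplotlib 3.10.9. Genes were named by rule: the 9 members throughout, list genes past the threshold, with an H3K27me3 value or with the highest or lowest mean of their list, of which the text gives those of the neural list, and the pluripotency genes Pou5f1, Nanog and Sox2. Others are named where they make up a count. The members and the lists were chosen with earlier results of these data known. Alternatives were another pseudocount, a filter on the mean, quantile normalization, no variance trend, 1 line per origin, leaving out each line, and for methylation no centring, the median in place of the mean, and no sex chromosomes. Promoter sequences are from RefSeq on GRCm38.p6.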

Additional observations from a re-analysis of the deposited data

How the results depend on the processing

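No member had an adjusted p under 0.05 from limma in any alternative. No paired analysis was possible because the line numbers of the labels are not shared between origins. The count of all genes called for H3K4me3 (66) became 102 with a pseudocount of 0.1, 467 with 1 line of each origin enough, 0 with a mean of at least 1 RPKM, with quantile normalization or without the variance trend, and 78 to 138 with each line left out in turn. For H3K36me3 (19) the same alternatives gave 44, 68, 0, 0, 0 and 1 (without TTF4) to 53 (without TTF1). For methylation (2) the count was 0 without centring, 52 with median centring, 0 with quantile normalization, 1 without the variance trend, 4 with 1 line of each origin, 9 without chromosomes X and Y and 0 to 1003 with a line left out, the highest without TTF1. The cause was not tested. Quantile normalization gave 2 of 7 members without overlap for H3K4me3 (28.5% of all genes on that scale). The 2 were Pou3f1, with TTF above (14.2% of all genes), and Sox1, with TTF below (14.4%), while Olig2 overlapped. It gave 3 of 8 for H3K36me3 (30.1%) and 2 of 9 for methylation (33.6%). No centring gave 5 of 9 for methylation (23.9%). For H3K36me3, Neurog1 had an unadjusted p of 0.0387 with quantile normalization (adjusted p = 0.998, limma).

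The sign of a member's difference depended on single lines. A fit without 1 line leaves an origin with 1 line that is assumed to vary like the other origin. For H3K4me3 these fits gave -0.15 to 0.16 at Pax6, -0.18 to 0.40 at Nes, -0.11 to 0.53 at Neurog2, -0.12 to 0.58 at Pou3f1 and -0.61 to 0.087 at Otx2, and quantile normalization gave -0.0080 at Pax6. For H3K36me3 they gave -1.07 to 0.74 at Pax6, -1.35 to 0.26 at Sox1, -0.26 to 0.40 at Otx2, -0.99 to 0.40 at Neurog2, -0.98 to 0.47 at Olig2, -1.33 to 0.38 at Pou3f1 and -1.03 to 0.28 at Six3. Neurog1 kept its sign for H3K36me3, and Sox1 and Olig2 for H3K4me3. For methylation the lowest and highest were -0.167 and 0.156 at Pax6, -0.125 and 0.0550 at Olig2, -0.164 and 0.353 at Pou3f1, -0.296 and 0.0182 at Sox1, -0.204 and 0.0353 at Nes, -0.152 and 0.0987 at Neurog1 and -0.239 and 0.0650 at Neurog2. Each of these lowest values was without TTF1 and each highest without TTF4, and the members' median for methylation moved from -0.167 to 0.0550 with them. Without centring the differences were 0.0813 at Pax6, 0.00295 at Nes, 0.0606 at Neurog1, 2.8e-05 at Neurog2 and 0.0521 at Olig2, and with quantile normalization 0.0796 at Pax6, 0.0465 at Neurog1, 0.00627 at Neurog2 and 0.0152 at Olig2. Six3 and Otx2 kept their sign for methylation in all alternatives. With 2 clones per origin, 1 mean over peaks per gene and unknown coverage, no difference at a single member was resolved.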
